A study of Mus musculus with 2 samples.

Results

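Folr2-positive C1q macrophages were the cells of 143B tumors that carried the complement C1q transcripts together with at least 1 transcript of Folr2, the folate receptor beta. They were chosen by transcript counts. A barcode was kept with at least 500 unique molecular identifiers (UMIs, each standing for 1 captured transcript), more than 200 and fewer than 6000 genes and under 5% mitochondrial UMIs. It was placed among these cells when C1qa, C1qb and C1qc made up at least 0.1% of its UMIs, Csf1r and Folr2 each had at least 1 UMI, and the neutrophil transcripts S100a8 and S100a9 stayed under 2%. The rule found 1434 cells among 19826 kept in all, with 122 of 8557 in the control IgG library and 1312 of 11269 in the anti-CD3L1 library. 143B is a human osteosarcoma line, here grown under the skin of female nude mice injected at 4 weeks of age, and such mice lack a thymus and conventional T cells but keep myeloid and natural killer (NK) cells. Mice received 10 mg/kg of a human IgG1 isotype control or of anti-CD3L1, an antibody against the membrane protein CD3L1 (Itpripl1 in the mouse), every 3 days for 4 doses. Leukocytes of 3 tumors per group were taken with CD45 beads and pooled into 1 droplet library per group, so a mouse and its cells could not be matched and neither treatment had a replicate library. All differences are therefore given without a test, and every interval covers counting error only.

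C1q is the recognition molecule of the classical complement pathway, and within tumors its 3 chains are made mainly by macrophages. Folr2 marks a macrophage state that lies around vessels in many resting tissues and in tumors, often together with the mannose receptor Mrc1, the scavenger receptors Stab1 and Cd163 and the transcription factor Maf. Macrophages derived from recently arrived monocytes carry more Ly6c2 and MHC class II, and those loaded with lipid carry Trem2, Gpnmb, Spp1 and Lpl.

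The cells were deeply read. The 122 control IgG cells held 1877377 UMIs in all, with a median of 15125 UMIs and 3660.5 genes per cell, and the 1312 anti-CD3L1 cells held 15699204 UMIs, with medians of 11403 and 3151. The difference in depth bears on the rule, since a deeper cell more easily shows 1 UMI of Folr2. A single Folr2 UMI placed 60 of the 122 control IgG cells (49.2%) and 458 of the 1312 anti-CD3L1 cells (34.9%) in the class, and the highest count was 19 in the one library and 46 in the other. On the scale of CPM, the counts of a gene per 1000000 UMIs of the summed cells, the level of Folr2 was 198 in control IgG (95% exact Poisson interval 179 to 219) and 304 in anti-CD3L1 (296 to 313). C1q made up a median of 0.781% of the UMIs of a control IgG cell and 0.906% of an anti-CD3L1 cell. No barcode of these cells was shared between the libraries, although 5 of the anti-CD3L1 cells had a barcode that also marked a kept cell of another class in control IgG.

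Among all kept cells the share of Folr2-positive C1q macrophages was 1.43% in control IgG (exact binomial 95% interval 1.19 to 1.70) and 11.6% in anti-CD3L1 (11.1 to 12.2). Neutrophils, cells with at least 2% S100a8 and S100a9 among other marks, filled much of the control IgG library (3785 cells against 389). Without the cells at or above 2% the shares were 4.37% of 2792 cells and 12.2% of 10754 cells. The same limit is part of the rule, and it left 2792 of 8557 kept cells in control IgG and 10754 of 11269 in anti-CD3L1. Cells at or above it that carried Csf1r were barred as well and are not among the neutrophils counted here. No alternative relaxed this limit, so its part in the shares was not tested. Within the C1q macrophages themselves the Folr2-positive share was 34.2% of 357 (29.3 to 39.3) against 41.3% of 3179 (39.6 to 43.0). After each cell was thinned to 2000 UMIs, that share was 12.4% of 354 (9.18 to 16.3) against 17.7% of 3136 (16.4 to 19.1). Most of the difference among kept cells thus lay in the C1q macrophages as a whole, at 4.17% and 28.2% of kept cells, and less of it in how many of them carried Folr2. Bead yield and the makeup of each pool were not measured and cannot be told apart from the treatment.

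As a background, Folr2 was seen in 0 of 132 NK cells of control IgG (upper limit 2.76%) and in 10 of 624 of anti-CD3L1 (1.60%), at median depths of 11514 and 9400 UMIs. Neutrophils, at medians of 4313 and 2103 UMIs, showed it in 0.317% and 1.80% of cells. C1q-low cells that carry the monocyte gene Vcan showed it in 4.85% and 8.93%. The shares within C1q macrophages stood far above each of these.

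The label was checked against its markers. The other marker genes, Pf4 (platelet factor 4, a chemokine of resident macrophages) and Ccl8 (a chemokine that attracts monocytes), were not used to choose cells. Ccl8 stood at 1877 CPM in control IgG and 1747 in anti-CD3L1, against 3.51 and 27.2 in the Vcan cells and 0 and 10.7 in NK cells. Pf4 stood at 984 and 473 CPM, against 43.5 and 35.7 in Vcan cells. Both therefore marked the cells in both libraries. The defining markers of other cell types were low. The 10 neutrophil markers summed to 159 CPM in control IgG and 77.6 in anti-CD3L1, mostly Csf3r, which macrophages also carry. Only 2 of them, Ly6g and Camp, had no UMI in control IgG, and these had 3 and 4 UMIs in anti-CD3L1. Some neutrophil transcripts were nevertheless seen in a larger share of the control IgG cells. S100a8, limited by the rule, was seen in 121 of 122 control IgG cells and 213 of 1312 anti-CD3L1 cells. Retnlg, another neutrophil transcript, was seen without thinning in 25.4% and 2.06% of these cells, and in 28.8% and 0.801% of NK cells. The source of this RNA was not tested. The 8 NK markers summed to 8.52 and 45.9 CPM, led by Klrk1, and Ncr1, Gzmb, Prf1 and Eomes had no UMI in control IgG. The 6 B cell markers summed to 32.5 and 20.4 CPM, led by Cd79b. The 6 T cell markers summed to 46.3 and 10.9 CPM, nearly all of it Cd4, with Cd3g at 0 in control IgG. The 8 dendritic cell markers summed to 55.4 and 34.2 CPM with Ccr7 as the most abundant, the 6 fibroblast markers to 19.7 and 5.86, and the 6 erythroid and mast cell markers to 11.7 and 3.76. Monocyte markers were present at 525 and 758 CPM over 9 genes, led by Plac8. Osteoclast markers summed to 704 and 756 CPM over 8 genes, and most of that was Acp5, a phosphatase of lysosome-rich macrophages as well.

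**Figure D1:**
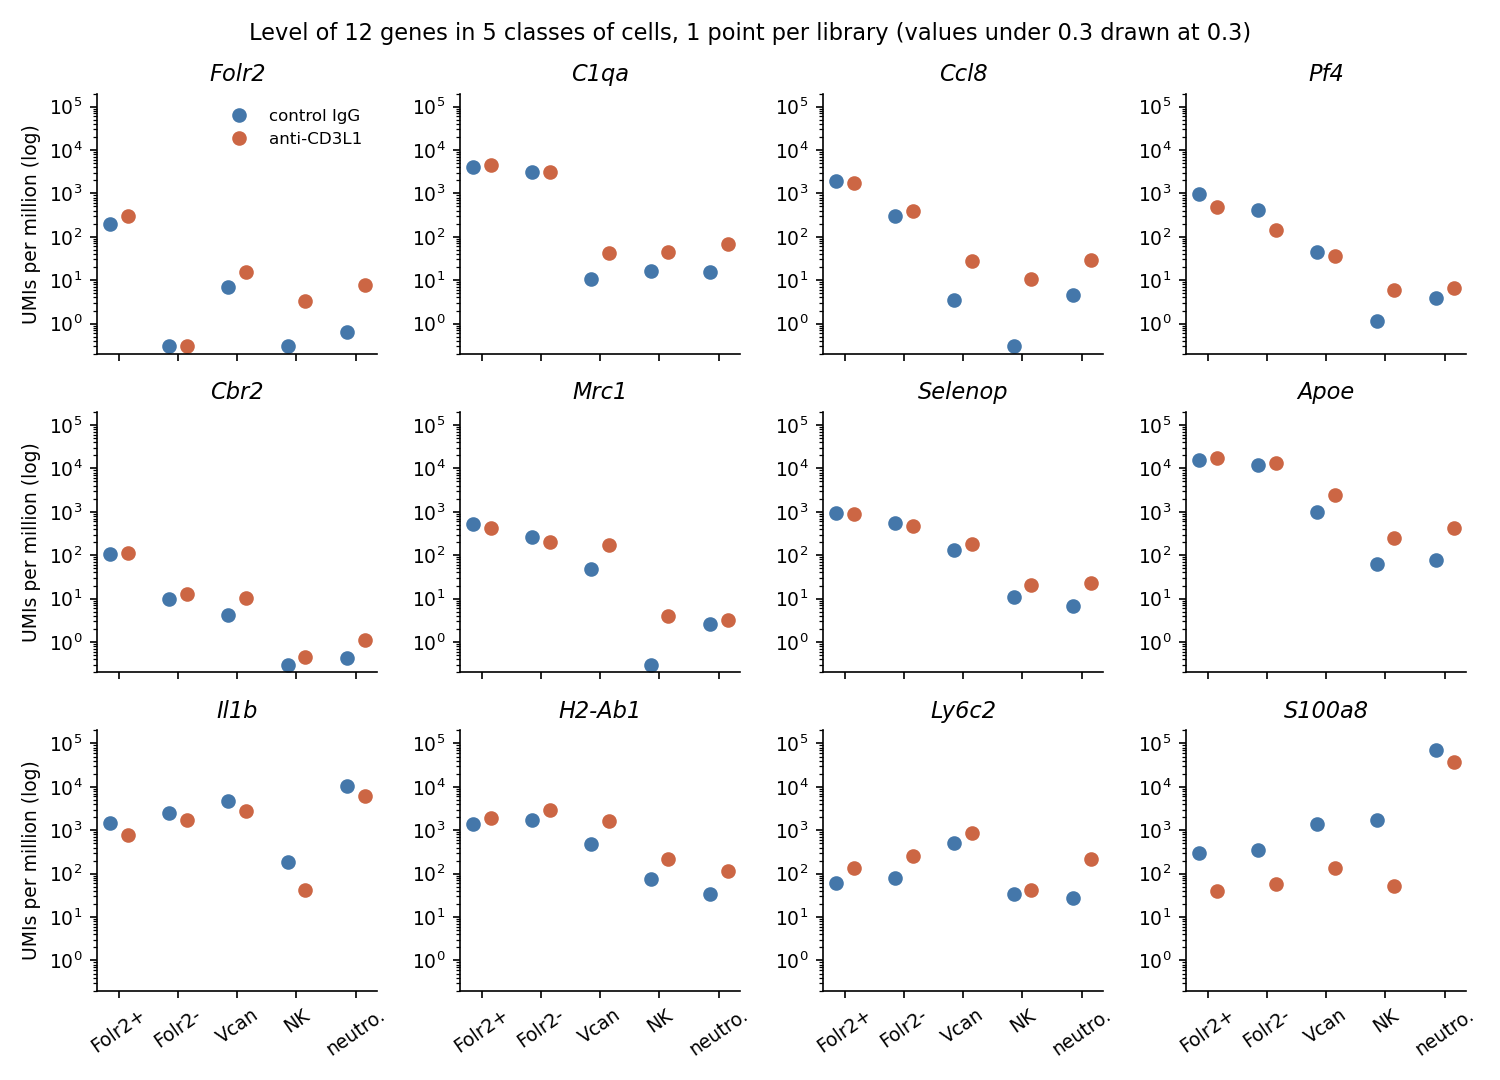
Level of 12 genes (CPM, log axis) in Folr2-positive and Folr2-negative C1q macrophages, C1q-low Vcan cells, NK cells and neutrophils, with 1 point per library and values under 0.3 drawn at 0.3. Ccl8, Pf4, Cbr2 and Mrc1 were highest in the Folr2-positive cells of both libraries, at 1877 and 1747 CPM for Ccl8, while Ly6c2 was highest in Vcan cells and S100a8 in neutrophils.

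Which genes go with Folr2 was read by setting the Folr2-positive cells against the 235 control IgG and 1867 anti-CD3L1 C1q macrophages in which no Folr2 UMI was seen. The split itself used Folr2, so these ratios describe the cells and carry no test. Among 3005 genes with at least 50 CPM on one side in each library, 900 (30%) were higher and 1074 (35.7%) lower in Folr2-positive cells of both libraries. Only 8 (0.266%) were at least 2-fold higher in both and 1 (0.0333%), Cytip, at least 2-fold lower. The median log2 ratio of all genes was 0.00 in control IgG and -0.03 in anti-CD3L1. By this split few genes were thus 2-fold apart in both libraries. The split depends on depth, since a cell with 0 Folr2 UMIs may have carried Folr2 unseen. With Folr2 at 2 UMIs or more on the positive side, 20 genes were at least 2-fold higher and 5 at least 2-fold lower.

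The 8 genes were Cxcl13, Cbr2, Ccl8, Psd3, Pf4, Ednrb, Wwp1 and Mrc1. Of these 5 lost the call under at least 1 alternative, Cxcl13, which had no shared direction after thinning, and Pf4, Mrc1, Ednrb and Wwp1, whose log2 ratio nearer 0 of both libraries reached 0.69, 0.71, 0.79 and 0.98. Ccl8 was 6.19-fold higher in control IgG (1877 against 303 CPM, log2 interval 2.53 to 2.73) and 4.37-fold higher in anti-CD3L1 (1747 against 400, 2.09 to 2.16). Cbr2, a carbonyl reductase known from resident macrophages, was 11.0-fold and 9.09-fold higher, at 107 and 113 CPM in Folr2-positive cells. Mrc1, the mannose receptor CD206 that is widely used to name alternatively activated macrophages, was 2.02-fold and 2.12-fold higher, at 533 and 418 CPM. Pf4 was 2.38-fold and 3.26-fold higher. Cxcl13, the chemokine that draws B cells, had the widest gap, at 17.2-fold and 13.7-fold, but it came from few cells. In control IgG 8 of 122 cells held all 1690 of its UMIs and 1 cell held 65.9% of them, and in anti-CD3L1 it was seen in 39 of 1312 cells.

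Folr2 itself and the 4 broad companions Ccl8, Pf4, Cbr2 and Mrc1 were looked up in RefSeq (GRCm38.p6, a different build from the GRCm39 that the labels name, so genes were matched by symbol). The windows shown are the 250 bases before the annotated start, written 5′ to 3′ on the gene's strand. They are printed because Folr2 chose the cells and the summed levels of the 4 companions were higher in them in both libraries. In the first 4 the capitals mark GAGGAAG on either strand, letters bound by PU.1 (Spi1), the myeloid master regulator. In Folr2 they mark a match, on the other strand, to GAAANNGAA, a core of the sites for interferon regulatory factors. The windows lie at chr11:82114935-82115184 (plus strand) for Ccl8, chr5:90772185-90772434 (plus) for Pf4, chr11:120732022-120732271 (minus) for Cbr2, chr2:14229164-14229413 (plus) for Mrc1 and chr7:101857191-101857440 (minus) for Folr2.
Ccl8: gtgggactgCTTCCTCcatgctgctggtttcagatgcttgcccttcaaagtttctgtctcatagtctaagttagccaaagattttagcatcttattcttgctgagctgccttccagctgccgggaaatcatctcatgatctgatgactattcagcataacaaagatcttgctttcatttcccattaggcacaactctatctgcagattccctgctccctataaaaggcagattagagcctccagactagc
Pf4: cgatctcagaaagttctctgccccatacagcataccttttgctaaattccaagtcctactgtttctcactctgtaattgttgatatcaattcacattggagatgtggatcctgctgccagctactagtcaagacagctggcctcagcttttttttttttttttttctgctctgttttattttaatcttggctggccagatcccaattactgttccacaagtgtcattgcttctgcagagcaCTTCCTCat
Cbr2: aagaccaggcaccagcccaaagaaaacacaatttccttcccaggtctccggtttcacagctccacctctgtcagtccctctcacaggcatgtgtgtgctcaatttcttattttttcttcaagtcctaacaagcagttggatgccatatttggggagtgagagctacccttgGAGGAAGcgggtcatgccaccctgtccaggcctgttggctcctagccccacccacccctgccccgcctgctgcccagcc
Mrc1: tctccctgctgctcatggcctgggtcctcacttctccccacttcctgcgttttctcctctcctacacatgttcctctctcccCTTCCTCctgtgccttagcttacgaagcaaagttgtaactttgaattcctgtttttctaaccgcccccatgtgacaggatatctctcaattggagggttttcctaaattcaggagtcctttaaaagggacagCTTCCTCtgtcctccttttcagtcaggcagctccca
Folr2: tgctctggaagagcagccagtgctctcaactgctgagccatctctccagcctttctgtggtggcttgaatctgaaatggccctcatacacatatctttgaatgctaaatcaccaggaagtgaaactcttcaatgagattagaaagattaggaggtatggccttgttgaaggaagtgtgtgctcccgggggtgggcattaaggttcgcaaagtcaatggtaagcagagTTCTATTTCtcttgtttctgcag
The matches began 241 bases before the start in Ccl8, 9 in Pf4, 79 in Cbr2, 168 and 36 in Mrc1 and 23 in Folr2. Counted over the window from 250 bases before to 50 after the start, 6 of the 11 genes with a window among Folr2 and the 12 genes most raised in Folr2-positive cells held the PU.1 letters, as did 5 of the 9 with a window among the 12 most raised in Folr2-negative cells. Over all 27025 promoters the share was 13.5%. The letters were thus found on both sides of the split. The core of the sites for Maf (TGCTGAC on either strand, in 4.58% of all promoters) was found in 1 of the 11, Cbr2, and the interferon core (8.57% of all promoters) in 1 of the 11, Folr2. Among the 9 with a window on the Folr2-negative side the Maf core was in 0 and the interferon core in 2, Cytip and Cxcl9. A match of letters describes a sequence and is not evidence of binding.

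Genes known from tissue-resident and perivascular macrophages were read as a list. Of 22 on the list, 11 could be compared, and 11 of 11 were higher in Folr2-positive cells of both libraries, where 30% of all 3005 genes were. Of these, 4 were at least 2-fold higher, where 0.266% of all genes were, and the median log2 ratios were 0.85 and 0.97. A gene could pass the limit of 50 CPM through the Folr2-positive side alone, as Ednrb did (68.2 and 60.4 CPM against 30.3 and 17.7). The count is therefore partly set by that limit and is a description. The 11 included Selenop, a selenium carrier, at 917 and 906 CPM with log2 ratios of 0.76 and 0.92, and F13a1, the coagulation factor XIII A chain, with 0.96 and 0.97. Stab1, a scavenger receptor, had 0.85 and 0.98, and Ednrb, an endothelin receptor, had 1.17 and 1.77. Some members of the list were too low to be compared. Lyve1, a hyaluronan receptor, was seen in 5 of 122 and 65 of 1312 of them, at 20.2 and 20.4 CPM, against 0 and 0.213 CPM in Folr2-negative cells. Cd163, the hemoglobin scavenger receptor, stood at 6.92 and 12 CPM against 0.910 and 0.426. In control IgG 3 cells held 84.2% of the 38 UMIs of Lyve1 and 92.3% of the 13 of Cd163. Cd209f, a lectin, stood at 11.3 against 0.106 CPM in anti-CD3L1, with 71.2% of its UMIs in 3 cells. Slc40a1, the iron exporter ferroportin, stood at 4.79 against 4.85 CPM and 1.91 against 3.67, while Timd4, a phosphatidylserine receptor, and Vsig4, a complement receptor, had 1 and 0 UMIs in Folr2-positive cells of control IgG and stood at 5.67 against 3.94 and 2.74 against 0.053 CPM in anti-CD3L1.

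The other side of the split held MHC class II genes and single inflammatory genes such as Il1b. MHC class II genes were lower in Folr2-positive cells in 6 of 6 members compared in both libraries, none by 2-fold, with medians of -0.26 in control IgG and -0.55 in anti-CD3L1. H2-Ab1 stood at 1358 against 1769 CPM in control IgG and at 1940 against 2986 in anti-CD3L1. Il1b, the inflammatory cytokine interleukin 1 beta, was lower with log2 ratios of -0.80 and -1.17. Cytip, a regulator of leukocyte adhesion, was lower with -1.14 and -1.17, and Cxcl9, an interferon-induced chemokine, with -1.83 and -0.92. The level of Cytip in Folr2-positive cells was 33.5% and 30.2% of that in free RNA, barcodes with too few UMIs to be cells, that of Il1b was 31.1% and 51.6%, and Cxcl9 stood at 278% and 72.4%. The part of free RNA was not tested. Of 9 inflammatory genes compared, 5 were lower in both libraries and 0 higher, where 35.7% of all genes compared were lower in both, and the medians were 0.00 in control IgG and -0.22 in anti-CD3L1. Areg, an epidermal growth factor receptor ligand, stood at 5.86 against 61.9 CPM in control IgG, where 4 cells carried it, and at 71.7 against 131 in anti-CD3L1. The remainder of the 12 most raised in Folr2-negative cells were Slc7a11, Gm20513, Prkce, Antxr2, Flrt3, F10, Nrg1 and Clec4e, of which Slc7a11 stood at 9.24% and 56.5% and Clec4e at 12.5% and 73.4% of the level of free RNA. After thinning Cxcl9, Areg, Gm20513, Prkce, Nrg1 and Clec4e no longer shared a direction in both libraries, nor did F10 with C1q at 0.5%, and Cytip fell short of 2-fold (-0.57).

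**Figure D2:**
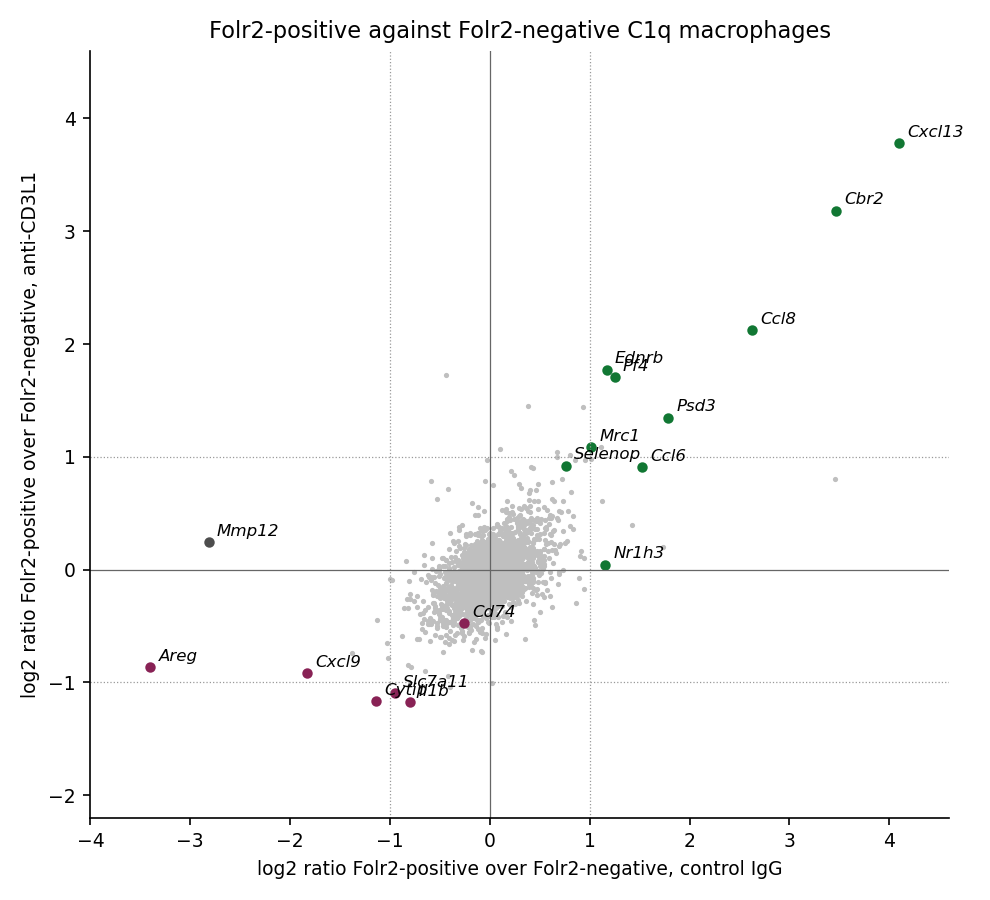
Log2 ratio of Folr2-positive over Folr2-negative C1q macrophages for 3005 genes, control IgG on the horizontal axis and anti-CD3L1 on the vertical axis, with dotted lines at 2-fold, green for named genes higher in both libraries, purple for lower in both and dark gray for opposite signs. Most genes lie near 0 on both axes, while Cxcl13, Cbr2 and Ccl8 stand out at 4.10, 3.46 and 2.63 in control IgG.

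Several companions of Folr2 graded with its count. Ccl8, Cbr2 and Il1b had been named from the same split by Folr2. A difference from the cells with 0 Folr2 UMIs was therefore built in, and the tiers are a description. In anti-CD3L1, Ccl8 stood at 400 CPM in cells with 0 Folr2 UMIs, 656 with 1 UMI, 1269 with 2 to 3 and 3183 with 4 or more. Cbr2 went through 12.5, 27.6, 47.6 and 252 CPM over the same 4 tiers, and Il1b the other way through 1750, 1033, 904 and 422. H2-Ab1 stood at 2986 CPM with no Folr2 UMI and 1498 with 4 or more. In control IgG the same ends were 303 and 3299 CPM for Ccl8, 9.70 and 321 for Cbr2, 2545 and 627 for Il1b, and 1769 and 703 for H2-Ab1. For these 4 genes the cells with 1 Folr2 UMI lay between the Folr2-negative cells and those with 4 or more. Other genes broke this order in control IgG, where Cxcl13 stood at 52.5, 9.09 and 2268 CPM with 0, 1 and 4 or more Folr2 UMIs. Apoe stood there at 12216, 11705 and 18974. Median depth was also higher with more Folr2 UMIs (10468 UMIs with 1 and 12401 with 4 or more in anti-CD3L1). At the C1q threshold, the 37 anti-CD3L1 cells just inside it (0.1 to 0.15% C1q) had Ccl8 at 164 CPM and the 35 just outside (0.05 to 0.1%) had 122, and the 9 and 6 such control IgG cells had none.

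Individual cells were uneven. Ccl8 was seen in 58 of 122 control IgG cells (47.5%) with up to 423 UMIs in a cell, and in 797 of 1312 anti-CD3L1 cells (60.7%) with up to 454. The sum of Ccl8, Pf4, Cbr2 and Mrc1 ranged from 0.00916% of UMIs at the 10th percentile of control IgG cells to 0.861% at the 90th, and from 0.00924% to 0.754% in anti-CD3L1. Across cells, that sum and the C1q sum had a Spearman rho of 0.35 in control IgG (122 cells) and 0.36 in anti-CD3L1 (1312 cells), as a description over cells of 1 library each, which share depth and are not replicates. The class was therefore not a uniform one, and many cells carried little of its companion genes.

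What differed after anti-CD3L1 within these cells was read from the 3415 genes that reached 50 CPM on either side. Of these 1683 (49.3%) were higher and 1732 (50.7%) lower, 77 (2.25%) at least 2-fold higher and 92 (2.69%) at least 2-fold lower, around a median log2 ratio of -0.01. Genes of lipid uptake and storage, several CC chemokines and MHC class II stood higher after anti-CD3L1. Heat shock genes stood lower, as did Pf4, Maf, Fcrls, Cx3cr1, Itgam and Adgre1. The 12 genes most raised in Folr2-positive cells, none of them used by the rule, were spread widely after anti-CD3L1. Ccl8 had a log2 ratio of -0.10, Cbr2 0.08, F13a1 0.01, Ednrb -0.18, Psd3 -0.25, Wwp1 -0.32, Mrc1 -0.35, Slc9a9 -0.50, Mir99ahg -0.65, Pf4 -1.06, Cxcl13 -3.31 and Ccl6 2.36. C1qa at 0.23 (3951 and 4619 CPM), Csf1r at -0.21 and Folr2 at 0.62 were limited by the rule and are given as a description. In Folr2-negative C1q macrophages of the same libraries 45 of the 77 higher and 51 of the 92 lower genes were past 2-fold in the same direction, where 1.9% and 2.02% of the 3415 genes were. In Vcan cells this held for 39 and 28 of them (4.22% and 1.73% of the 3415), and in NK cells, of the 21 and 38 with at least 50 CPM there, for 3 and 10 (1.13% and 1.25% of 2480 genes).

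**Figure D3:**
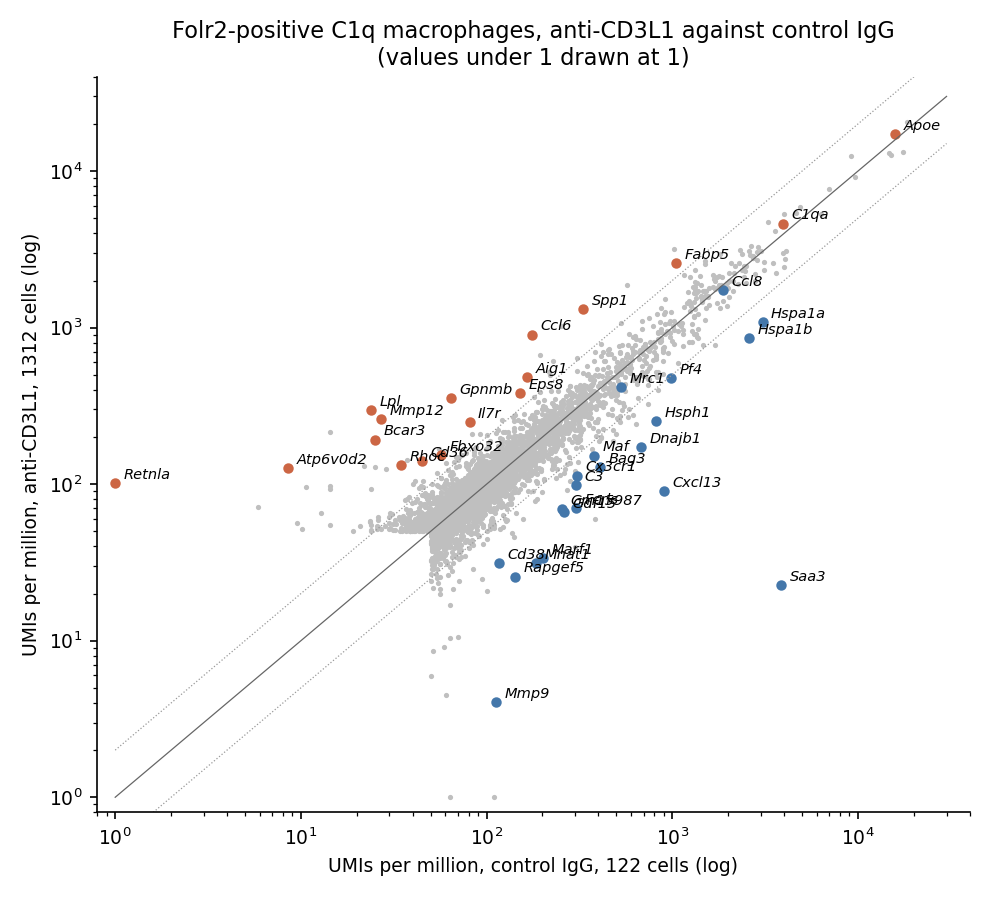
Level of each tested gene (CPM, log axes) in the 122 control IgG and 1312 anti-CD3L1 Folr2-positive C1q macrophages, with the diagonal for equal levels and dotted lines at 2-fold, orange for named genes higher after anti-CD3L1, blue for lower and values under 1 drawn at 1. Lpl, Gpnmb and Spp1 lie above the upper line (Spp1 at 332 and 1315 CPM), and Saa3 lies farthest below at 3857 and 22.8 CPM.

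The lipid handling and efferocytosis genes had the most members past 2-fold of the lists. Of 17 with at least 50 CPM, 13 were higher (7 at least 2-fold) and 4 lower (0 at 2-fold), with a median of 0.48 on the log2 scale beside -0.01 for all genes and 0.54 in Folr2-negative cells. Over all 3415 genes 49.3% were higher, 2.25% at least 2-fold higher and 2.69% at least 2-fold lower. Members of this list and those below were chosen with earlier results of these data known. Lpl, the lipoprotein lipase that frees fatty acids for uptake, stood at 24.0 CPM in control IgG (17.5 to 32.1) and 296 in anti-CD3L1 (288 to 305), a 12.3-fold difference. It was seen in 13 of 122 and 748 of 1312 cells. Gpnmb, a glycoprotein of lipid-laden macrophages, went from 64.5 to 354 CPM (5.49-fold) and Spp1, osteopontin, from 332 to 1315 (3.96-fold). One control IgG cell held 40.5% of the 624 UMIs of Spp1 in that library, and its log2 ratio of 1.98 ran from 1.33 to 4.57 over the alternatives. Fabp5, a fatty acid carrier, stood at 1046 and 2587 CPM (2.47-fold), and Trem2, a lipid-sensing receptor, at 220 and 500 (2.27-fold). Fabp4 and Cd36, a fatty acid transporter, had log2 ratios of 2.75 and 1.65. Cd36 fell short of 2-fold with Folr2 at 100 CPM, after thinning and without possible doublets (0.88, 0.62 and 0.85). Fabp4 fell short after thinning (0.24), where the 20 control IgG cells left had 0 UMIs of it and a floor of 3 UMIs stood in. The cholesterol exporters did not share the direction, with Abca1 at -0.37 and Abcg1 at -0.18, nor did their regulator Nr1h3 (-0.67) or the efferocytosis receptor Mertk (-0.79). Apoe, at 15859 and 17330.4 CPM, had 0.13.

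Sums of chosen lipid and heat shock genes were ordered inversely across the cells. The lipid genes of the sum were all higher after anti-CD3L1, and the heat shock genes all lower. The direction in which both medians differ was thus set by the choice, and Mertk, Nr1h3, Abca1 and Abcg1, which were lower, are not in the lipid sum. The summed share of Lpl, Gpnmb, Spp1, Fabp5, Trem2 and Cd36 was a median of 0.0659% of UMIs per control IgG cell and 0.334% per anti-CD3L1 cell, and that of Hspa1a, Hspa1b, Dnajb1, Hsph1 and Bag3 was 0.530% and 0.106%. Across cells both sums had a Spearman rho of -0.24 in control IgG and -0.50 in anti-CD3L1, again as a description over cells of 1 library. Of the pairs of sums computed, this one had the most negative rho in each library.

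Among chemokines the CC family divided. Of 9 members tested 3 were at least 2-fold higher and 1 lower (2.25% and 2.69% of all 3415 genes), with a median of -0.10. Ccl6 stood at 175 and 903 CPM (5.15-fold) and Ccl9 at 193 and 668 (3.47-fold), both mouse chemokines that draw monocytes, and Ccl24, which draws eosinophils, at 14.4 and 93.1. Ccl24 lay at 93.6% and 95.4% of the level of free RNA, and 3 cells held 74.1% of its 27 UMIs in control IgG. Ccl9 lay at 188% and 105% of the level of free RNA and Ccl6 at 210% and 179%, with log2 ratios in NK cells of 2.48 and 2.36. How much free RNA added to these values was not tested. Ccl12, a ligand of Ccr2, stood at 369 and 168. After thinning Ccl9 went from 1.79 to 0.38 on the log2 scale and Ccl12 from -1.13 to -0.38, short of 2-fold. Ccl2, Ccl3, Ccl4, Ccl7 and Ccl8 lay between -0.54 and 0.00. Among 7 CXC members none was 2-fold higher and 1, Cxcl13, was 2-fold lower, at 900 and 90.6 CPM. Without the 3 cells with the most Cxcl13 in each library, its log2 ratio turned from -3.31 to 0.75.

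MHC class II genes were higher in 7 of 7 members tested, 2 of them at least 2-fold, with a median of 0.51 (0.76 in Folr2-negative cells). Monocyte markers went the same way, with 4 of 4 tested higher, 2 of them at least 2-fold, and a median of 0.85 (1.19 in Folr2-negative cells). Beside both lists, 49.3% of all 3415 genes were higher and 2.25% at least 2-fold higher. Cd74, the invariant chain, stood at 3980 and 5338 CPM and H2-Ab1, a class II beta chain, at 1358 and 1940. H2-DMb1 and H2-DMb2, which load peptides onto class II, were the members past 2-fold, with 1.05 and 1.20. In anti-CD3L1 class II genes lay close to the level of free RNA, with Cd74 at 129% of it, H2-Eb1 at 111%, H2-DMa at 102%, H2-DMb1 at 98.8%, H2-DMb2 at 93.2%, H2-Aa at 93.1% and H2-Ab1 at 91.1%. H2-Ab1 stood at 425 and 2129 CPM in free RNA and at 76.1 and 212 in NK cells, where its log2 ratio was 1.48 and that of H2-Aa 2.16. The part of free RNA in these values was not tested. MHC class I genes had 0 of 7 past 2-fold and a median of 0.32, and 12 interferon-stimulated genes had a median of 0.04, with Usp18 (-1.08) the only member past 2-fold. The Fc gamma receptor list, by which macrophages bind IgG, had 0 of 5 past 2-fold and a median of 0.20.

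Resident and core macrophage genes went both ways. Of 12 resident genes tested, 8 were lower (2 at least 2-fold) and 4 higher, where 50.7% of all 3415 genes were lower and 2.69% at least 2-fold lower. The median of -0.23 took both signs over the alternatives (-0.42 to 0.074). Pf4 stood at 984 CPM in control IgG (940 to 1030) and 473 in anti-CD3L1 (463 to 484), and Maf, a regulator of the resident state, at 378 and 152. Fcrls, an Fc receptor-like scavenger molecule, was 4.31-fold lower at 304 and 70.5 CPM. The 16 core macrophage genes split into 8 higher and 8 lower, near the 49.3% and 50.7% of all genes, with a median of -0.10. Cx3cr1, the fractalkine receptor (306 and 114 CPM), Itgam, CD11b (310 and 138), and Adgre1, F4/80 (525 and 248.7), were at least 2-fold lower, while Trem2 was at least 2-fold higher. Without possible doublets Adgre1 went from -1.08 to -0.79 on the log2 scale and Pf4 from -1.06 to -0.55, and after thinning Cfp went from -1.36 to -0.66. The log2 ratio of Cx3cr1 was -1.43 and fell short of 2-fold at both stricter limits on Folr2, without possible doublets and without the 3 cells richest in it (-0.72, -0.49, -0.89 and -0.79). Of 9 complement genes 2 were 2-fold lower, C3, the central component (302 and 98.7 CPM), and Cfp, properdin (482 and 188). Of 12 macrophage transcription factors Maf and Cebpb were 2-fold lower and the median was 0.00. Pf4, Maf, Cfp and Fcrls were as far or farther apart in Folr2-negative cells, with -1.51, -1.48, -1.48 and -2.32.

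Immediate early and heat shock genes were lower in 12 of 12 members, where 50.7% of all 3415 genes were. At least 2-fold lower were 4 of the 12 (Jun, Hspa1a, Hspa1b and Dnajb1), beside 2.69% of all genes. The median of the list was -0.66 (-0.82 in Folr2-negative cells). After thinning, with 20 control IgG cells left, the median was -0.066, Jun had 0.046, and Hspa1a and Hspa1b fell short of 2-fold (-0.44 and -0.82). Hspa1b, an inducible heat shock protein 70, stood at 2600 CPM in control IgG (2528 to 2674) and 855 in anti-CD3L1 (840 to 869), and Hspa1a at 3067 and 1090. Dnajb1, their cochaperone, stood at 681 and 172. The difference was not shared by every class of cells. In Vcan cells Hspa1a stood at 569 and 839 CPM and in neutrophils at 140 and 322, the other way round, and in NK cells at 928 and 607.

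The window of Hspa1b is shown because heat shock genes filled 4 of the 12 places among the most lowered genes (Dnajb1, Hsph1, Bag3 and Hspa1b). It lies at chr17:34959239-34959488 (minus strand, GRCm38.p6, RefSeq), and the capitals mark GAANNTTC, the heart of the heat shock element, which reads the same on both strands.
Hspa1b: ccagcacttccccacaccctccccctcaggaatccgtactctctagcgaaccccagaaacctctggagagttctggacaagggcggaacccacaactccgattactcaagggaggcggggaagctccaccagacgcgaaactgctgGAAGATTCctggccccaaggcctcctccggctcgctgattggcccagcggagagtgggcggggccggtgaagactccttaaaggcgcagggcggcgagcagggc
The match began 104 bases before the start. The same letters were found in 4 of the 12 most lowered genes (Cxcl13, Hsph1, Bag3 and Hspa1b), in 0 of the 8 most raised genes with a window and in 7.95% of all promoters, a motif chosen after the values were seen. Of these genes Bag3 turned to a log2 ratio of 1.04 after thinning, with 3 control IgG UMIs left, and Hspa1b fell short of 2-fold (-0.82).

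The 12 most raised genes with at least 100 CPM and at least 2 times the level of free RNA of the same library were Retnla, Atp6v0d2, Lpl, Mmp12, Bcar3, Gpnmb, Rhoc, Cd36, Il7r, Aig1, Fbxo32 and Eps8. Retnla, a secreted product of alternatively activated mouse macrophages, was not seen in control IgG and stood at 102 CPM in anti-CD3L1. That is at least 63.6-fold higher if a floor of 3 UMIs is set in the control library, a log2 ratio of 5.99. The counting interval of that log2 ratio began lower, at 5.69. Retnla was carried by 46 of 1312 cells, and 47.0% of its UMIs lay in 1 cell. After thinning, with 20 control IgG cells left and 0 UMIs of Retnla in them, the log2 ratio to that floor was 0.24. Atp6v0d2, a subunit of the lysosomal proton pump, stood at 8.52 and 127 CPM. In control IgG it rested on 16 UMIs, 87.5% of them in 3 cells, and after thinning it had 0 UMIs there and a log2 ratio to the floor of 0.084 in place of 3.89. Mmp12, the macrophage elastase, stood at 27.2 and 260. In Folr2-negative cells Mmp12 was nearly level, at 191 and 220 CPM. In Folr2-positive control IgG cells 3 cells held 54.9% of its 51 UMIs.

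The 12 most lowered genes by the same limits were Cxcl13, Marf1, Mnat1, Rapgef5, Fcrls, Dnajb1, Gdf15, Cd38, Gm15987, Hsph1, Bag3 and Hspa1b. Marf1 and Mnat1 rested on single cells, with 82.4% of the control IgG UMIs of each in 3 cells. Of the 92 lower genes, 33 had over 25% of their control IgG UMIs in 3 cells. Rapgef5, an activator of Rap proteins, was 5.56-fold lower, at 143 and 25.7 CPM. Gdf15, a stress-induced cytokine, stood at 260 and 66.0 CPM, with 45.2% of its control UMIs in 3 cells, and was nearer to level in Folr2-negative cells (78.5 and 57.6). After thinning, with 2 control IgG UMIs of Gdf15 left, its log2 ratio turned from -1.98 to 0.88.

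**Figure D4:**
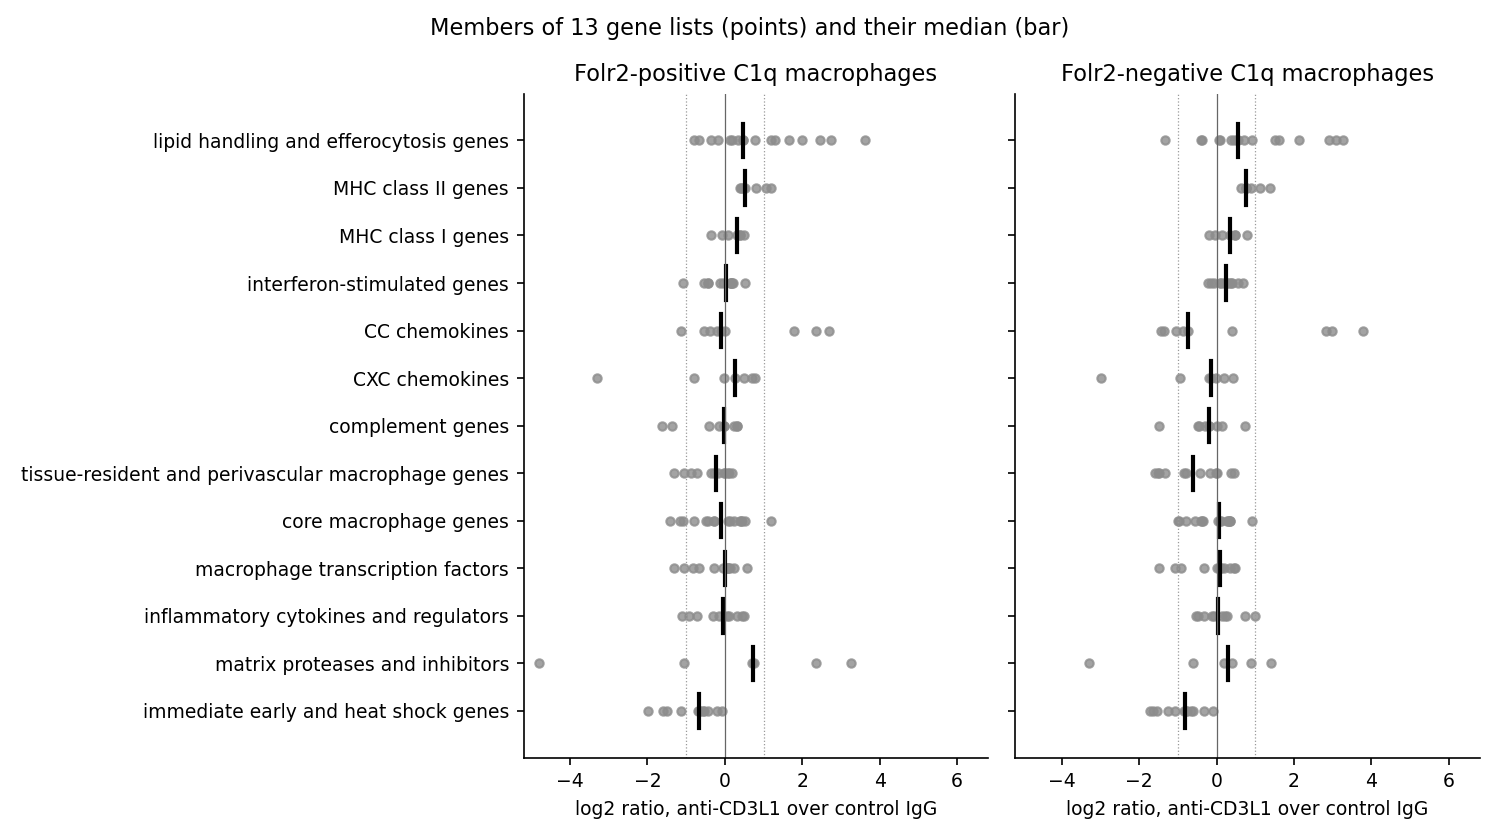
Log2 ratio after anti-CD3L1 for the members (points) of 13 gene lists and their median (bar), in Folr2-positive cells on the left and Folr2-negative C1q macrophages on the right, with dotted lines at 2-fold. Lipid handling genes had medians of 0.48 and 0.54, MHC class II 0.51 and 0.76, and immediate early and heat shock genes -0.66 and -0.82.

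The genes by which the study names macrophage states were compared next. The study picked several of them out in these libraries, so their direction is not independent evidence. Of the 4 named for M1, 3 were higher, with a median of 0.80, and of 8 tested that are named for M2, 6 were lower and 2 higher, with a median of -0.25. Among all 3415 genes 49.3% were higher and 50.7% lower. The 6 lower genes include S100a8, S100a9 and Csf1r, which the rule itself limits. The M2 count and median are thus partly set by the rule, and the lower genes outside it were Mrc1, Il10 and Vegfa, beside 2 higher. Over the alternatives the M1 median ran from 0.10 to 1.34 and the M2 median from -0.40 to -0.013. For M1, Ccl9 and Ly6c2, a monocyte antigen (60.2 and 136 CPM), were at least 2-fold higher and Cd74 was higher by 0.42, whereas Cd86, a costimulatory ligand, was lower by -0.44 (422 and 311 CPM). For M2, S100a8 and S100a9 were at least 2-fold lower and 6 were not past 2-fold, among them Mrc1 at -0.35, Tgfb1 at 0.17, Il10 at -0.30 and Vegfa at -0.10. S100a8, S100a9 and Csf1r, the last also named for M2, were limited by the rule. The level of S100a8 in these cells was 299 and 39.9 CPM, which is 1.05% and 7.83% of its level in barcodes that hold free RNA only, so the part of free RNA in it was not tested. Nrp2, the receptor that the study pairs with CD3L1, was level at 340 and 334 CPM, and Itpripl1 stood at 8.52 and 6.56.

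Beyond these groups, 2 of 6 alternative activation genes tested were at least 2-fold higher (Retnla and Ccl24), with Fn1, fibronectin, at 0.95. Past 2-fold were 2.25% (higher) and 2.69% (lower) of all 3415 genes. Matrix genes went both ways over 6 members, with Mmp12 and Ctsk, cathepsin K (10.1 and 52.0 CPM), higher and Mmp9, a gelatinase (113 and 4.08 CPM), and Mmp14, a membrane-bound collagenase (412 and 198), lower. Of 10 inflammatory genes 1, Ptgs2, cyclooxygenase 2 (-1.12), was past 2-fold, and Il1b stood at 1464 and 776 CPM. Among growth factors 1 of 7 was past 2-fold, Areg, with Hbegf at 0.95. Neither the 6 iron genes nor the 8 glycolysis and hypoxia genes had a member past 2-fold. Of 3 cell cycle genes tested all were lower, and Mki67, a mark of cycling cells, stood at 80.4 and 39.0 CPM. Without possible doublets the median of the list went from -0.83 to 0.39 on the log2 scale, and Mki67 went from -1.04 to -0.14.

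Because the control IgG cells were read more deeply, the share of cells with a gene was set out after thinning each cell to 2000 UMIs, which left 122 and 1308 cells. Lpl was then seen in 4.92% of control IgG cells (exact interval 1.83 to 10.4) and 28.3% of anti-CD3L1 cells (25.9 to 30.8), beside 10.7% and 57.0% unthinned. Ccl6 was seen in 16.4% and 56.5% of cells and Trem2 in 32.0% and 53.6%. In NK cells thinned alike, read here as background, Lpl was seen in 0% (upper limit 2.76%) and 1.44%, Ccl6 in 0% and 2.25% and Trem2 in 0.758% and 1.44%. Spp1 was seen in 15.6% and 53.1% of Folr2-positive cells but also in 20.5% and 40.3% of NK cells, so its share in control IgG did not stand above background. Maf was seen in 42.6% (33.7 to 51.9) and 24.9% (22.6 to 27.4), and Fcrls in 30.3% and 11.2%. Ccl8 was seen in 33.6% (25.3 to 42.7) and 42.1% (39.4 to 44.9), and the intervals overlap. Mrc1 was seen in 49.2% and 41.4% and F13a1 in 21.3% and 20.6%, with overlapping intervals as well. All these intervals cover counting error over the cells of 1 library each, so neither an overlap nor a gap tests the treatment.

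**Figure D5:**
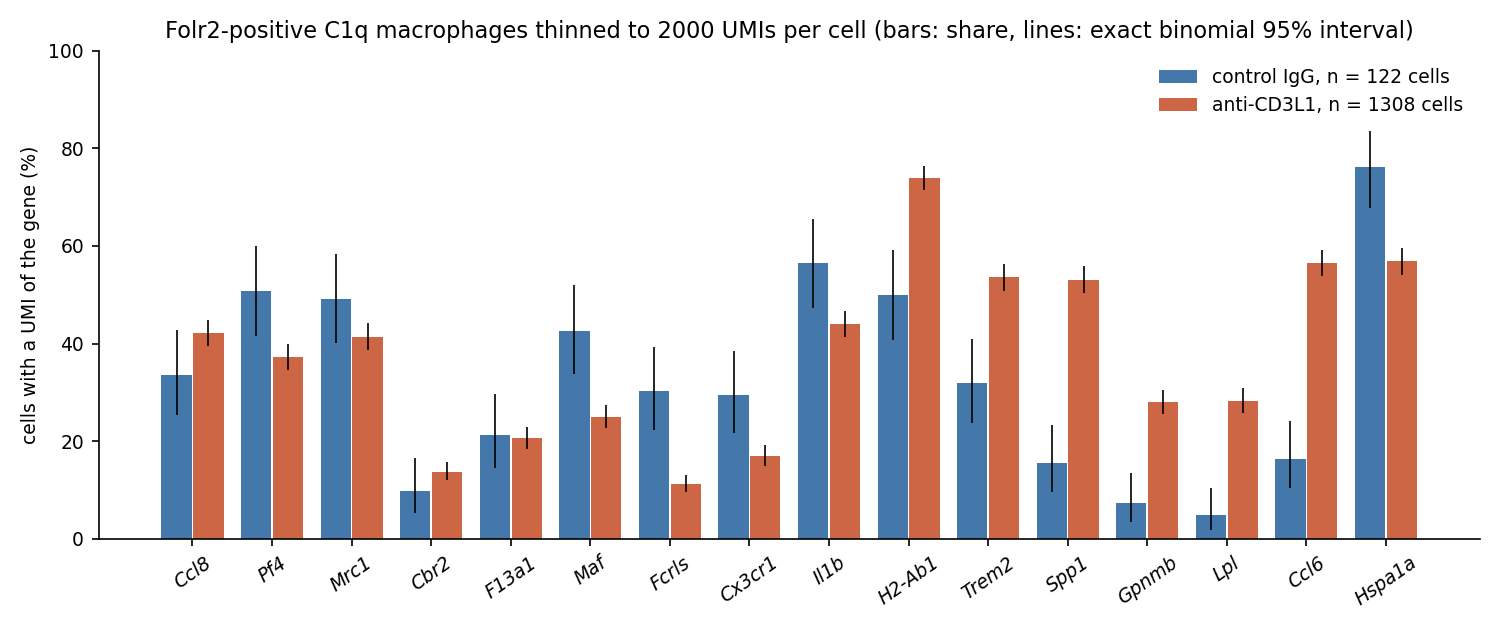
Share of Folr2-positive C1q macrophages with a UMI of each of 16 genes after thinning to 2000 UMIs per cell (bars, percent of 122 control IgG and 1308 anti-CD3L1 cells, with exact binomial 95% intervals as lines). Lpl and Ccl6 were found in more anti-CD3L1 cells (56.5% against 16.4% for Ccl6), and Maf and Fcrls in fewer. Spp1 was also found in 20.5% and 40.3% of NK cells.

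Some of the widest differences ran through the whole of the libraries. These genes were picked out after their values were seen. Mpp7, a membrane scaffold protein, stood at 110 CPM in control IgG and 0.764 in anti-CD3L1, and Tpd52l1, of the tumor protein D52 family, at 63.4 and 0.701. Mpp7 stood at 401 and 8.91 CPM in NK cells and 194 and 3.27 in neutrophils, and Tpd52l1 at 140 and 1.23 in NK cells. With 1 library per group, differences between the libraries as a whole and those of the treatment cannot be told apart, in these or any other values given after anti-CD3L1. Whether the mice of both groups shared a genetic background was not tested. Supt4a, a transcription elongation factor, went the other way in each of the 5 classes, with 25 and 129 CPM in Folr2-positive cells and 73.2 and 237 in NK cells. Saa3, an acute phase protein, had the largest log2 ratio in size of the 3415 genes, at 3857 and 22.8 CPM (169-fold). It stood at 7380 and 111 CPM in Vcan cells, 5463 and 41.4 in neutrophils, and 6248 and 62.3 in free RNA, so the Folr2-positive cells of control IgG lay at 61.7% of the level of free RNA. Of the 92 lower genes 24 were more abundant in free RNA of control IgG than in the cells, and of the 77 higher genes 14 were so in anti-CD3L1. The part of free RNA in these values was not tested.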

How the data were processed

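The authors deposited unnormalized UMI counts per gene and barcode for every barcode of 2 libraries. The labels name Cell Ranger 7.1.0, Seurat 5.1.0 and GRCm39. All barcodes together gave 74850604 UMIs for control IgG and 108246719 for anti-CD3L1. A further deposited table holds the authors' own macrophage comparison (fold changes, p-values, shares of cells) and was not used. Counts of chosen cells were summed per library and given as CPM with exact Poisson intervals, ratios with exact binomial intervals (Python 3.11.15, scipy 1.17.1). The study's limits on genes and mitochondrial UMIs were kept. No batch integration, clustering or doublet caller was used. Against 0 UMIs a floor of 3 UMIs per library stood in. Free RNA was read from barcodes ranked 45000 to 90000 by UMIs. Genes were named by rule: the genes of the rule and markers, the 2 to 4 list members farthest from 0, and the 12 highest and 12 lowest of each comparison. The members and lists were chosen with earlier results of these data known. Results of 1 gene are not reported here. Ratio scripts were tested on simulated data. Among kept cells 26 barcodes occur in both libraries.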

Additional observations from a re-analysis of the deposited data

Results flagged for a closer look

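With 1 library per group, no sample could be compared with its own group for being far from the others. For 6 named genes the ratio of anti-CD3L1 over control IgG had opposite signs in Folr2-positive and Folr2-negative C1q macrophages, each with a counting interval clear of 0, and these differences were not tested. On the log2 scale, the ratio in Folr2-positive cells minus that in Folr2-negative cells was -0.50 for Ccl8, 0.91 for Cxcl14, -0.64 for Ifi44, -0.42 for Il10, -1.11 for Nr1h3 and 0.41 for Ldha. Nr1h3, the liver X receptor alpha, stood at 108 and 67.8 CPM in Folr2-positive cells and at 48.2 and 65.8 in Folr2-negative cells. Ccl8 stood at 303 and 400 CPM in Folr2-negative cells. Its log2 ratio in Folr2-positive cells ran from -0.46 to 0.31 over the alternatives, so the opposite sign did not hold under all of them.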

How the results depend on the processing

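No paired analysis was possible because each group had 1 library and the result comes from no test. With Folr2 at 2 UMIs or more, at 100 CPM per cell, after thinning, with C1q at 0.5%, from 2000 UMIs, with mitochondrial UMIs to 10% and without possible doublets, the share among kept cells differed by 6.85, 8.40, 2.50, 7.97, 11.2, 9.45 and 12 percentage points in place of 10.2, and with Folr2 at 100 CPM the share of C1q macrophages by 13.1, and without possible doublets by 12, in place of 7.1. Possible doublets were the 5% of cells with the most UMIs in each library and cells with 2 or more UMIs of NK, B, dendritic and fibroblast markers together. Without them 63 of the 122 control IgG cells were left, at 0.833% of kept cells in place of 1.43%. Genes 2-fold higher after anti-CD3L1 numbered 487 after thinning, 136 with free RNA subtracted, 134 from 20 CPM, 1004 from 3 UMIs and 131 without the 3 cells richest in each gene (an alternative chosen after seeing the data), in place of 77. Lower genes numbered 1081 after thinning, 174 from 20 CPM, 3351 from 3 UMIs and 43 without the 3 richest cells, in place of 92. Genes 2-fold higher in Folr2-positive cells numbered 20 at both stricter Folr2 limits, 22 after thinning, 17 from 20 CPM, 113 from 3 UMIs and 4 without the 3 richest cells, in place of 8. Lower ones numbered 5 and 4 at the stricter Folr2 limits, 7 after thinning, 0 at 0.5% C1q, 2 at 10% mitochondrial UMIs, 5 without doublets, 2 with another total, 8 with free RNA subtracted, 3 from 20 CPM, 60 from 3 UMIs and 2 without the 3 richest cells, in place of 1. Among genes past 2-fold, log2 ratios that changed sign were Cxcl13 (0.75 without the 3 richest cells), Marf1 (0.76 thinned, 0.077 without doublets), Mnat1 (0.055 and 0.085 at the stricter Folr2 limits), Gdf15 (0.88), Bag3 (1.04) and Jun (0.046) after thinning, and Top2a (1.18 without doublets). The thinned values of Marf1, Gdf15 and Bag3 rested on 1, 2 and 3 control IgG UMIs, and that of Jun on 36. Of genes not past 2-fold, Ccl8 (-0.46 to 0.31), Cbr2 (-0.41 to 1.17), Nrp2 (-0.029 to 0.58), Apoe (-0.14 to 0.38), Mrc1 (-0.66 to 0.0030) and Cd86 (-0.55 to 0.0098) also took both signs over the alternatives. Of 46 named genes past 2-fold, 42 kept their direction after thinning, 44 without doublets and 45 without the 3 richest cells, and 27, 35 and 34 of them stayed past 2-fold. Among others, Aig1 (0.90), Ccl9 (0.38), Ccl12 (-0.38), Cebpb (-0.997), Eps8 (0.52), Fabp5 (0.999), Fbxo32 (0.15), Hspa1a (-0.44), Hspa1b (-0.82), Mmp14 (-0.43) and Trem2 (0.93) fell below 2-fold under at least 1 alternative, at the value nearest 0 given here. Of 24 genes that set Folr2-positive apart from Folr2-negative cells 17 kept their direction after thinning, and of 22 list medians 14 did after thinning, 17 without doublets, 15 with free RNA subtracted and 16 without the 3 richest cells. The causes were not tested. The number of cells limits the control IgG side, where 122 cells carry every comparison and 20 Folr2-positive cells remain there when cells are chosen after thinning.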
